A study of Mus musculus with 8 samples.

Results

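Total RNA of mouse embryonic stem cells (ESCs) was examined for 6 genes, the p53 family (Trp53, Trp63 and Trp73) and the negative regulators of p53 (Mdm2, Mdm4 and Ppm1d), which are 6 of the 55401 genes in the count files. The genes were chosen by name as members of the pathway, with earlier results of these data known, the rise of Mdm2 included. The test of Mdm2 is therefore not independent of that choice. Trp73 was picked for its rise in both depletions, so its difference from control is given as a description without a test. The study asked how RNA abundance follows transcription when ATAC (Ada-two-A-containing), a coactivator complex, is inactivated. It depleted ZZZ3 or YEATS2, which are core subunits of ATAC, each carrying an auxin-inducible degron (AID), through which added auxin sends the protein to degradation. Zzz3 auxin comprised 3 libraries and Yeats2 auxin 3 libraries, each from AID cells that were given 500 µM auxin for 24 h, and Control comprised 2 libraries. The growth notes of all 8 libraries, controls included, describe mouse ESCs in serum with leukemia inhibitory factor and inhibitors of MEK and GSK3 (2i), under selection for Tir1, the F-box protein that auxin couples to the degron. The labels give neither the line of the controls nor whether they had auxin or solvent. The supplement of the study describes the ZZZ3 and YEATS2 data as AID cells with DMSO, the solvent, set against auxin, without assigning either control library to a line. The labels also do not say how many clones each AID line rests on or whether replicates were separate cultures. Each comparison with control may therefore hold an effect of auxin or of the line as well as the depletion, and P values measure only the spread between these libraries, which may be technical.

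The p53 protein is a transcription factor that is held at a low level in unstressed cells because MDM2, a ubiquitin ligase, marks it for degradation. MDM4 (MDMX), a relative of MDM2 with little ligase activity of its own, binds the transactivation domain of p53 and pairs with MDM2, and PPM1D (WIP1) is a phosphatase that removes activating phosphates from p53 and from the kinases upstream of it. Mdm2 and Ppm1d are also p53 target genes, so both form feedback loops, and p63 and p73 share the DNA-binding domain of p53 and recognise similar sites. In ESCs p53 is abundant and linked to differentiation and the DNA damage response, whereas p63 is known from stratified epithelia and p73 from multiciliated cells and Cajal-Retzius neurons.

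The promoters of the members that were higher in both depletions are shown here, since their levels are described beside each other below. Sequences are 300-base windows from RefSeq on GRCm38.p6, with 250 bases before and 50 after an annotated start, written 5′ to 3′ on the gene's strand. Capitals mark matches, on either strand, to a GC box, a CCAAT box, a TATA box, an E-box, a cyclic AMP response element (CRE), an E2F site or the p53 half-site. The Mdm2 window is chr10:117710709-117711008 (minus strand) and the Ppm1d window chr11:85311004-85311303 (plus strand). Trp73 has an upstream window at chr4:154139826-154140125 and an internal one at chr4:154097124-154097423 (minus strand).
Mdm2: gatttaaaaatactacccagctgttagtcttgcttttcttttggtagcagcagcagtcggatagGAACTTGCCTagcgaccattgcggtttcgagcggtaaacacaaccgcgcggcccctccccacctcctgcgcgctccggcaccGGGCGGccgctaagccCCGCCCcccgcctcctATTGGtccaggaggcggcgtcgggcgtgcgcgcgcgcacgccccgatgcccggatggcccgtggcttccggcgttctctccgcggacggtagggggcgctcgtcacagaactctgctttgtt
Ppm1d: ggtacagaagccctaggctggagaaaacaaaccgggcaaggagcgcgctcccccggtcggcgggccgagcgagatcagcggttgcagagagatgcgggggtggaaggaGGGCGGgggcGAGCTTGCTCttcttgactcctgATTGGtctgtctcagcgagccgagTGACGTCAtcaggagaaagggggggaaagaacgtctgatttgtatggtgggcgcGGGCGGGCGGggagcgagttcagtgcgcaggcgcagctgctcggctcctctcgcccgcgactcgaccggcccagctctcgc
Trp73 upstream: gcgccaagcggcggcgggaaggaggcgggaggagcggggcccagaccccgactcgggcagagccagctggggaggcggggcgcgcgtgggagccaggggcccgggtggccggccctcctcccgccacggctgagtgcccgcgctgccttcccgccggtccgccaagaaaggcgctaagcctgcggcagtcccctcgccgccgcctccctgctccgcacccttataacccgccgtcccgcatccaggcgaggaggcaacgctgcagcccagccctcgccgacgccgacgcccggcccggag
Trp73 internal: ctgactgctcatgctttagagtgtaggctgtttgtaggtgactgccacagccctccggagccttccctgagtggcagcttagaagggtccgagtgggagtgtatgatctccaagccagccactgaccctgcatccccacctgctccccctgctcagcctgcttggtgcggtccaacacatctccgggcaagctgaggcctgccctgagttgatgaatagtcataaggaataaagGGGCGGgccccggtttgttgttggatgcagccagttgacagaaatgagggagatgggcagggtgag

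The Mdm2 window held 2 GC boxes, 104 and 88 bases before the start, a CCAAT box 72 bases before it and a p53 half-site 186 bases before it. The Ppm1d window held 3 GC boxes, of which 2 overlap each other, a CCAAT box, a CRE 85 bases before the start and a p53 half-site 132 bases before it. The upstream Trp73 window held none of these motifs but 39 CpG dinucleotides and 77.7% GC, against a median of 7 CpG and 52.7% GC over all 32851 windows, and the internal window held a GC box 16 bases before its start and 6 CpG. Among the members not printed, the Trp53 window held a p53 half-site 75 bases before the start and a CCAAT box 8 bases before it. Its TATA box match, on the opposite strand, lay 248 bases before the start, and its E-box 10 bases after it. Neither Mdm4 window held a match. A p53 half-site was thus present in 3 of the 7 windows of the members, while 8.36% of all windows hold one. The GC box, searched as GGGCGG, was in 35.7% of all windows, and the CCAAT box, searched by the letters of its name, in 37.4%. The TATA box, searched as TATAAA, was in 13.6% and the E-box, searched as CACGTG, in 7.15%. The CRE, searched as TGACGTCA, was in 1.79%, and an E2F site, searched as TTTCCCGC, TTTCGCGC, TTTGCCGC or TTTGGCGC, was in 2.26%. These matches describe letters and not binding, and the p53-responsive promoter of Mdm2 is known to lie in its first intron, outside this window.

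Libraries held 14315120 to 27884704 reads assigned to genes. All 8 ESC markers (Pou5f1, Nanog, Sox2, Zfp42, Klf4, Esrrb, Tfcp2l1 and Dppa5a) were present in every library, each at 103 to 2545 CPM (counts scaled to library size with TMM factors, trimmed means of M values), whereas the summed level of 5 fibroblast markers was at most 2.15 CPM, that of 4 primitive endoderm markers 3.90 to 7.18 CPM and that of 3 neuroectoderm markers 4.90 to 6.71 CPM in Control, 3.64 to 5.69 after Zzz3 auxin and 2.39 to 3.40 after Yeats2 auxin. Zzz3 mRNA was at 182 to 186 CPM in the controls against 77.5 to 112 after Zzz3 auxin, and Yeats2 mRNA was at 90.9 to 95.8 CPM in the controls against 43.7 to 103 after Yeats2 auxin, a range that holds the controls. The degron removes the protein, so these mRNA levels do not show the depletion. Control replicate 1 and Zzz3 auxin replicate 3 stood apart in their trend with GC content: genes in the upper minus those in the lower quartile of GC had a median log2 ratio of -0.59 and 0.47 in these libraries and of -0.09 to 0.16 elsewhere.

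The effect of each depletion was then examined member by member. Of the 6 genes, 5 passed the filter on low counts and 4 were tested (Trp53, Mdm2, Mdm4 and Ppm1d), since Trp63 did not pass and Trp73 was not tested. In Zzz3 auxin against control, Mdm2 was the 1 member called (edgeR adjusted P under 0.05), where 0.753% of 17532 genes were called, 0.496% higher and 0.257% lower. In Yeats2 auxin against control, Mdm2 was again the 1 member called, where 0.445% of genes were called, 0.331% higher and 0.114% lower. Mdm2, Ppm1d and Trp73 were higher in every library of either depletion than in both controls, and Mdm4 was lower in every library of either depletion. Non-overlap of this kind is common with 2 controls: 16.8% of all genes were higher and 18.9% lower without overlap in Zzz3 auxin, against 19.3% and 21% in Yeats2 auxin. These shares are for each depletion alone. The share of genes without overlap in both depletions at once was not counted, and Trp73 was picked for this pattern. Both comparisons use the same controls, so they are not independent of each other. In bulk RNA, a change in the number of cells with a transcript and a change in its amount per cell cannot be told apart.

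**Figure D1:**
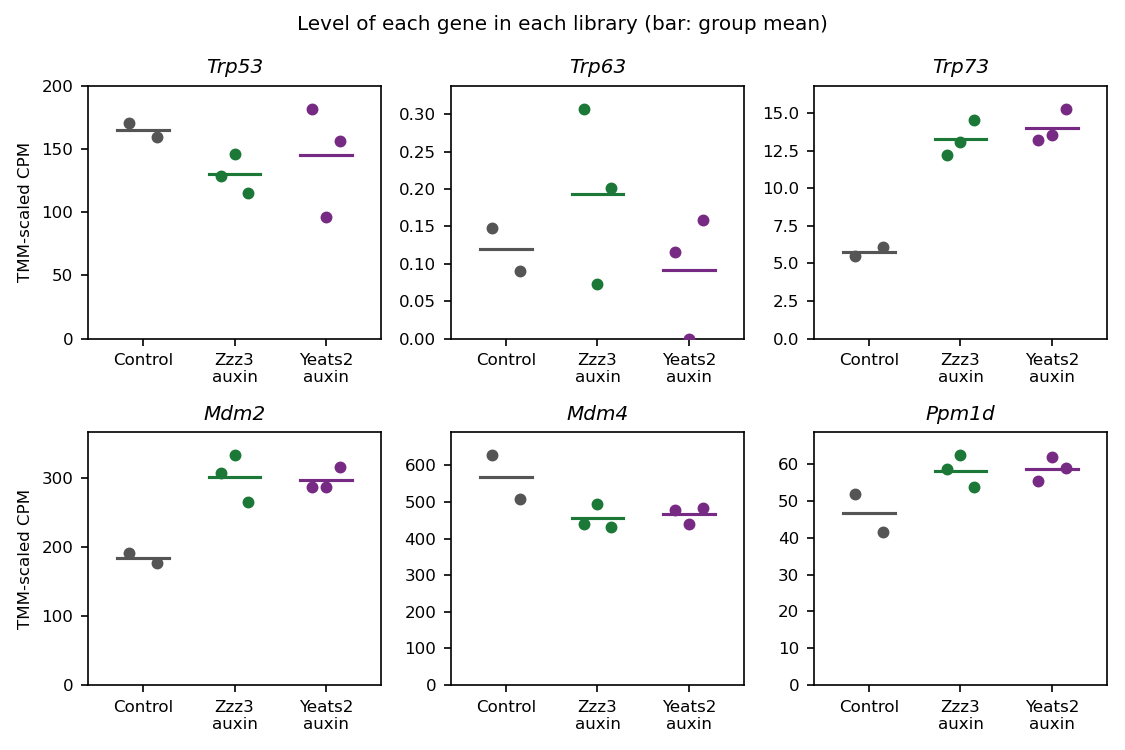
TMM-scaled CPM of each gene in each of the 8 libraries (points) with the group mean (bar), on an axis from 0 that differs between panels. Mdm2 lies at 177 to 191 CPM in the controls and at 265 to 333 CPM in the auxin libraries, and Trp73 at 5.48 to 6.08 and 12.2 to 15.3 CPM.

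Trp53 itself, which encodes p53 (ENSMUSG00000059552, GRCm38 chromosome 11, 69580359 to 69591873, plus strand), was expressed at 171 and 159 CPM in the controls. After Zzz3 auxin it had 129, 146 and 116 CPM, and after Yeats2 auxin 182, 96.3 and 157 CPM. The Zzz3 auxin libraries all lay below the controls, whereas Yeats2 auxin held both the highest and the lowest value of the series. The log2 fold change (FC) was -0.34 in Zzz3 auxin (SE 0.21, edgeR adjusted P 0.377), against -0.19 for Yeats2 auxin (SE 0.21, adjusted P 0.722), and neither passed the test. The sign in Yeats2 auxin rested on replicate 2, without which the log2 FC was 0.04. The processed pseudogene Trp53-ps had 4 to 26 reads in a library.

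Trp63, which encodes p63, the master regulator of stratified epithelia (ENSMUSG00000022510, chromosome 16, 25683763 to 25892102, plus strand), was close to the limit of these libraries. Its reads numbered 3 and 2 in the controls, 8, 2 and 3 after Zzz3 auxin and 3, 0 and 4 after Yeats2 auxin. The 0 in Yeats2 auxin replicate 2 allows up to 0.109 CPM when a count of 0 is given a limit of 3 reads, or 0.134 CPM by the exact Poisson interval. Summed over libraries, Trp63 had 5 reads in Control, 13 after Zzz3 auxin and 7 after Yeats2 auxin, which are 0.118 CPM (exact 95% Poisson interval 0.0384 to 0.276), 0.19 CPM (0.101 to 0.326) and 0.0889 CPM (0.0357 to 0.183). These intervals overlap and cover counting error only, and a difference in Trp63 was not detectable at this depth. The 4 keratinocyte genes Krt5, Krt14, Krt15 and Dsg3 were low as well, with none reaching 1 CPM in a library.

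Trp73, which encodes p73 (ENSMUSG00000029026, chromosome 4, 154056253 to 154140208, minus strand), had 111 and 134 reads in the controls, 318, 357 and 217 after Zzz3 auxin and 341, 374 and 386 after Yeats2 auxin. This gave 5.48 and 6.08 CPM in the controls, 12.2, 13.1 and 14.5 CPM after Zzz3 auxin and 13.2, 13.5 and 15.3 CPM after Yeats2 auxin. The lowest auxin library lay above the highest control, which is the pattern for which the gene was picked. The level was 5.78 ± 0.425 CPM in Control (SD, n = 2), 13.3 ± 1.17 after Zzz3 auxin (n = 3) and 14.0 ± 1.12 after Yeats2 auxin (n = 3). The fitted FC over control was 2.29 in Zzz3 auxin (log2 FC 1.20, SE 0.17) and 2.42 in Yeats2 auxin (log2 FC 1.28, SE 0.17).

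Among the members Trp73 has the most GC-rich transcript, with 57% GC (percentile 87.1 among expressed protein-coding genes). After correction of the trend of each library on GC content and length, its log2 FC was 0.88 in Zzz3 auxin and 1.06 in Yeats2 auxin. The exons of Trp73 overlap those of the antisense gene Trp73os over 280 bp, which is 5.06% of its exon length, and Trp73os had 1 to 8 reads. The gene gives a full-length form from the upstream promoter and a truncated form without the transactivation domain from an internal one, and gene-level counts do not separate them. Genes of the cells where p73 is best known stayed low: of Foxj1, Mcidas, Ccno and Reln, Mcidas had 0 reads in every library, and the summed level of all 4 was 2.02 to 2.40 CPM in Control, 3.00 to 4.08 in Zzz3 auxin and 2.57 to 3.29 in Yeats2 auxin. The part of these cells in the level of Trp73 was not tested.

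Mdm2, the ubiquitin ligase of p53 (ENSMUSG00000020184, chromosome 10, 117688875 to 117710758, minus strand), had 191 and 177 CPM in the controls. It had 307, 333 and 265 CPM after Zzz3 auxin and 287, 287 and 316 CPM after Yeats2 auxin. No auxin library reached down to the controls. Group levels were 184 ± 9.96 CPM in Control (SD, n = 2), 302 ± 34.2 after Zzz3 auxin (n = 3) and 297 ± 16.3 after Yeats2 auxin (n = 3). Mdm2 rose by a FC of 1.64 in Zzz3 auxin (95% interval 1.36 to 1.99, edgeR adjusted P 0.0375) and of 1.61 in Yeats2 auxin (1.34 to 1.95, adjusted P 0.0428), which are log2 FCs of 0.71 and 0.69 (SE 0.13 for both).

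The size of the Mdm2 difference was similar under all 16 alternative analyses, at a log2 FC of 0.65 to 0.81 in Zzz3 auxin and 0.64 to 0.76 in Yeats2 auxin, but the call was not. It held in 8 of 16 alternatives in Zzz3 auxin (adjusted P 8.88e-05 to 0.324) and in 10 of 16 in Yeats2 auxin (0.000253 to 0.43). Without Control replicate 1 and 2, which leaves 1 control, the log2 FC in Zzz3 auxin was 0.79 and 0.66. In Zzz3 auxin the edgeR adjusted P was 0.073 with Zzz3 auxin replicate 1 left out, where 14 of all genes were called. It was 0.0859, 0.0644 and 0.0876 without Yeats2 auxin replicates 1, 2 and 3, where 3, 28 and 12 of all genes were called. In Yeats2 auxin it was 0.13, 0.138 and 0.227 without Yeats2 auxin replicates 1, 2 and 3, where 2, 4 and 0 of all genes were called. The loss of the call in these fits was thus not particular to Mdm2. With the GC and length correction the log2 FC was 0.80 (adjusted P 0.00567) and 0.75 (adjusted P 0.00953).

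**Figure D2:**
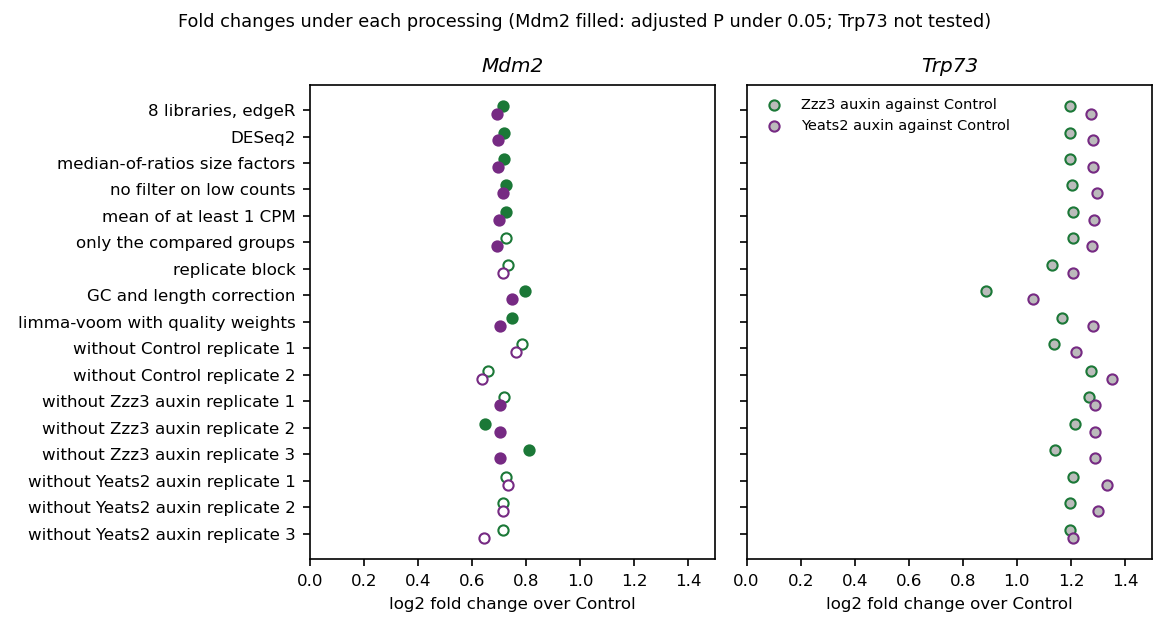
Log2 FC over Control of Mdm2 and Trp73 (horizontal axes) under the analysis of all 8 libraries and its 16 alternatives (vertical axis), with green for Zzz3 auxin and purple for Yeats2 auxin. Filled Mdm2 points had an adjusted P under 0.05, and Trp73 was not tested. The Mdm2 points stay between 0.64 and 0.81 while their calls come and go, and Trp73 is lowest with the GC and length correction, at 0.88 and 1.06.

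Mdm4, the MDM2 relative (ENSMUSG00000054387, chromosome 1, 132959484 to 133030561, minus strand), did not pass the test in either depletion. It had 627 and 508 CPM in the controls, 440, 495 and 432 CPM after Zzz3 auxin and 479, 441 and 483 CPM after Yeats2 auxin. The auxin libraries all lay below the lower control, although the controls differed from each other by more than the gap between the groups. The log2 FC was -0.32 in Zzz3 auxin (SE 0.12, edgeR adjusted P 0.174), against -0.28 for Yeats2 auxin (SE 0.12, adjusted P 0.327). Without Control replicate 1 the values were -0.14 and -0.10, and without Control replicate 2 they were -0.46 and -0.42.

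Ppm1d, the phosphatase (ENSMUSG00000020525, chromosome 11, 85311244 to 85347066, plus strand), had 51.9 and 41.6 CPM in the controls, 58.7, 62.4 and 53.8 CPM after Zzz3 auxin and 55.4, 62.1 and 58.9 CPM after Yeats2 auxin. The lowest auxin library exceeded the higher control by less than the controls differed from each other. The log2 FC was 0.32 in Zzz3 auxin (SE 0.13, edgeR adjusted P 0.199), against 0.33 for Yeats2 auxin (SE 0.13, adjusted P 0.288), and neither passed the test. Without Control replicate 2 the values were 0.17 and 0.18, and without Control replicate 1 they were 0.50 and 0.51.

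**Figure D3:**
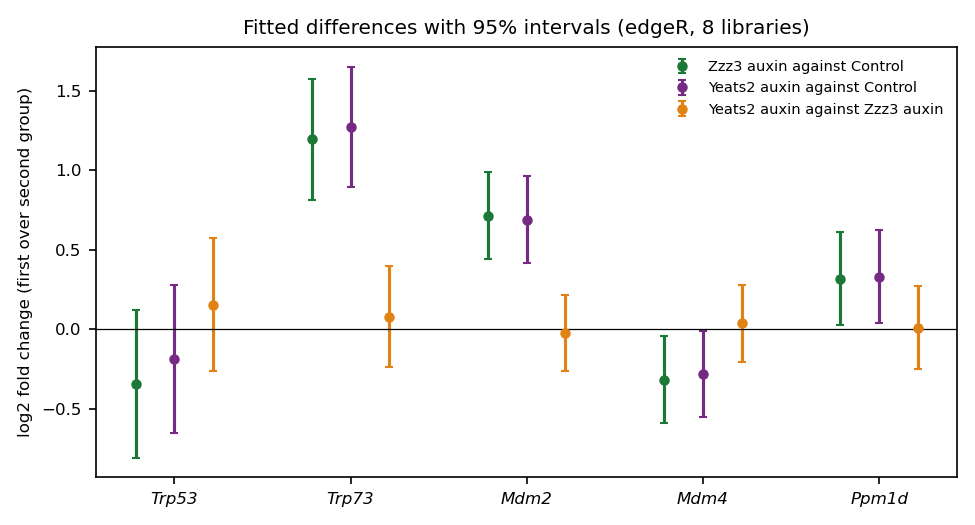
Fitted log2 FC (vertical axis) with its 95% interval for the 5 members that passed the filter, for both depletions over Control (green and purple) and for Yeats2 auxin over Zzz3 auxin (orange). The Mdm2 intervals over Control lie above 0 at about 0.7 in both depletions, while all orange intervals span 0, and Trp73 is shown as a description. In both depletions the Ppm1d intervals over Control also lie above 0 (0.03 to 0.61 and 0.04 to 0.62). Those of Mdm4 lie below 0 (-0.59 to -0.05 and -0.55 to -0.01), and neither gene was called.

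Whether the depletions differed from each other was asked by comparing Yeats2 auxin with Zzz3 auxin directly. None of the 4 tested members was called, and edgeR called 0% of all genes, with 1095 genes at an unadjusted P under 0.05. DESeq2 called 3 genes and limma-voom 1. With no filter on low counts edgeR called 117 of 33007 genes, and without Zzz3 auxin replicate 3 it called 1. The log2 FC of Mdm2 was -0.02 (95% interval -0.26 to 0.22), that of Mdm4 0.04 (-0.21 to 0.28) and that of Ppm1d 0.01 (-0.25 to 0.27). The interval was wider for Trp53, at 0.16 (-0.27 to 0.58), whose Yeats2 auxin libraries spread most. For Trp73, given without a test, it was 0.08 (-0.24 to 0.40). Differences of the size that these intervals allow may have gone undetected. The intervals are not adjusted for the number of genes tested, so larger differences may also have gone uncalled. Mdm4 in Zzz3 auxin against control, for instance, had an interval of -0.59 to -0.05 and was not called.

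Levels of different members were compared per kilobase (kb) of annotated exon. In the controls Trp53 (40.8 ± 2.01 CPM per kb, SD, n = 2), Mdm4 (38.4 ± 5.70) and Mdm2 (36.2 ± 1.96) came first, followed by Ppm1d (14.7 ± 2.29), Trp73 (1.04 ± 0.0768) and Trp63 (0.0142 ± 0.00483). Among the first 3, Mdm2 lay below Trp53 in both controls without overlap, while the spread of Mdm4 held the levels of both. In Zzz3 auxin Mdm2 stood first at 59.3 ± 6.73 CPM per kb (n = 3), ahead of Trp53 (32.2 ± 3.75) and Mdm4 (30.8 ± 2.30), which did not differ beyond their spread. The order in Yeats2 auxin was the same, with Mdm2 at 58.4 ± 3.21, Trp53 at 35.9 ± 10.9 and Mdm4 at 31.6 ± 1.56. In both depletions Ppm1d (18.4 and 18.5), Trp73 (2.40 and 2.53) and Trp63 (0.0231 and 0.0109) kept the lower places.

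The order of the first 3 depends on the length used. With the longest transcript in place of all exons, Mdm4 was highest in the controls (79.9 CPM per kb), ahead of Mdm2 (58.4) and Trp53 (50.4), and Mdm2 was highest in both depletions (95.9 and 94.3), ahead of Mdm4 (64.1 and 65.8). Trp53 supplied nearly all transcripts of the family in every library. The share of Trp73 in the summed level per kb of the family was 2.29% and 2.71% in the controls, 6.46%, 6.15% and 8.40% after Zzz3 auxin and 5.03%, 9.31% and 6.64% after Yeats2 auxin, and the choice of Trp73 for its rise enters this share.

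The balance of the 2 MDM genes was compared within each library, where library scaling cancels. The ratio of Mdm2 to Mdm4 per kb of exon was 0.886 and 1.01 in the controls, 2.03, 1.96 and 1.79 after Zzz3 auxin and 1.75, 1.90 and 1.90 after Yeats2 auxin. The 6 auxin libraries all lay above both controls, and the depletions overlapped each other. The ratio of Mdm2 to Trp53 was 0.889 and 0.882 in the controls, 1.90, 1.81 and 1.82 after Zzz3 auxin and 1.26, 2.37 and 1.60 after Yeats2 auxin. It was thus narrow in Zzz3 auxin, while in Yeats2 auxin it spread with the level of Trp53. These ratios were not tested and use the same values as the differences above.

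**Figure D4:**
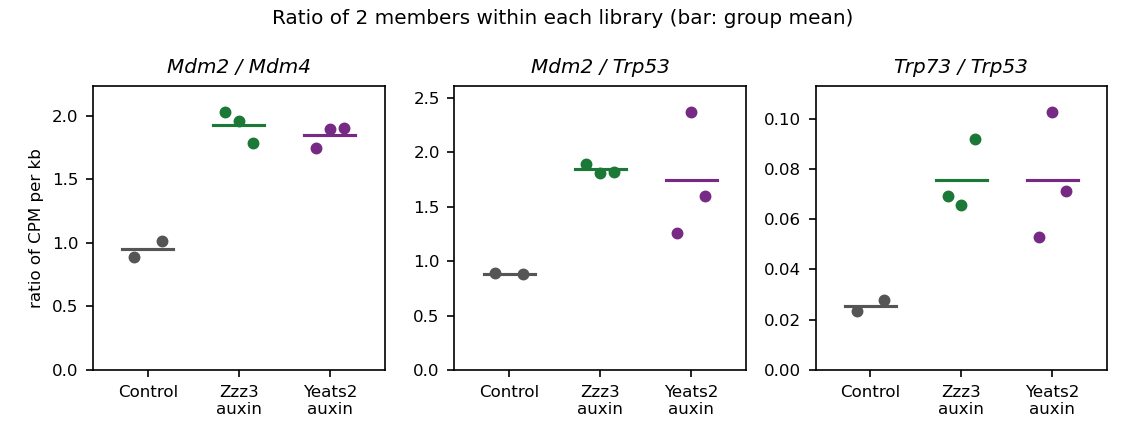
Ratio of CPM per kb between 2 members within each library (points) and the group mean (bar), on axes from 0. Mdm2 over Mdm4 is 0.886 to 1.01 in the controls and 1.75 to 2.03 in the auxin libraries. The ratios with Trp53 spread most in Yeats2 auxin.

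To place the members in their pathway, 35 p53 target genes other than the members were examined, a list drawn up with earlier results of these data known. All 35 passed the filter. In Zzz3 auxin 6 rose, 0 fell and 29 did not pass the test, with a median log2 FC of 0.44 against 0.01 over all genes tested, and 25 of 35 lay above 0, as did 51.1% of all genes. In Yeats2 auxin 5 rose, 0 fell and 30 did not pass, with a median of 0.47 against -0.01, and 31 of 35 lay above 0, against 48.9% of all genes. An unadjusted P under 0.05 was found for 19 of 35 in Zzz3 auxin and 20 of 35 in Yeats2 auxin. Among all 17532 genes tested it was found for 3804 and 2565, and edgeR called 0.753% and 0.445% of them. In the direct comparison of both depletions 0 were called by edgeR, DESeq2 or limma-voom, 1 had an unadjusted P under 0.05, and the median was -0.02.

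The genes that rose are known for growth control and for signalling in the p53 response. Plk2, a polo-like kinase, had 83.7 and 84.5 CPM in the controls, 219, 218 and 174 after Zzz3 auxin and 180, 203 and 200 after Yeats2 auxin, and its log2 FC was 1.28 (edgeR adjusted P 0.00465) and 1.21 (adjusted P 0.00799). Ptpn14, a phosphatase that restrains YAP, had 50.4 and 47.5 CPM in the controls, 95.5, 107 and 78.0 after Zzz3 auxin and 100.2, 101 and 109.8 after Yeats2 auxin. Its log2 FC was 0.94 (adjusted P 0.0223) and 1.08 (adjusted P 0.0204).

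Pidd1 (a death domain protein that assembles a caspase-2 platform), Phlda3 (an inhibitor of AKT) and Btg2 (an antiproliferative cofactor of mRNA deadenylation) rose in both depletions, by log2 FCs of 0.81, 0.78 and 0.68 after Zzz3 auxin and 0.78, 0.80 and 0.70 after Yeats2 auxin. Sesn2, a sestrin that restrains mTORC1 and is also known as a target of ATF4, was called in Zzz3 auxin (log2 FC 1.01, edgeR adjusted P 0.0359) and not in Yeats2 auxin (log2 FC 0.81, adjusted P 0.0728). Between the depletions Sesn2 differed by -0.20 (SE 0.15, adjusted P 0.796).

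The 4 most abundant targets among those not called were examined next. Ccng1, a cyclin of the p53 response, had group means of 976 CPM in Control, 1288 in Zzz3 auxin and 1257 in Yeats2 auxin, with log2 FCs of 0.40 and 0.37 that did not pass the test. Trp53inp1, a p53-inducible nuclear protein, had means of 876, 1193 and 1303 CPM, and Eda2r, a receptor of the tumor necrosis factor family, had 173, 246 and 244, neither of which passed. Ei24 had 198, 192 and 217 CPM, with log2 FCs of -0.05 and 0.13. Cdkn1a, which encodes the cell cycle inhibitor p21 and was named after its values were seen, had 78.2 and 53.2 CPM in the controls, 79.2, 82.7 and 33.3 after Zzz3 auxin and 75.1, 73.2 and 71.7 after Yeats2 auxin, so that the groups overlapped (log2 FC -0.01 and 0.16).

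The number of targets called changed with single libraries, as did the number of all genes called. In Zzz3 auxin 1 target was called without Zzz3 auxin replicate 1, where 14 of all genes were called. It was also 1 without Yeats2 auxin replicate 1, 2 or 3, where 3, 28 and 12 of all genes were called. Without Zzz3 auxin replicate 3 it was 11, with 298 of all genes called. In Yeats2 auxin it was 1 without Yeats2 auxin replicate 1 or 2, where 2 and 4 of all genes were called. It was 0 without Yeats2 auxin replicate 3, with 0 of all genes called, and 10 without Zzz3 auxin replicate 3, with 230. DESeq2 called 15 and 13 targets in Zzz3 and Yeats2 auxin, where it called 1105 and 417 of all genes.

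**Figure D5:**
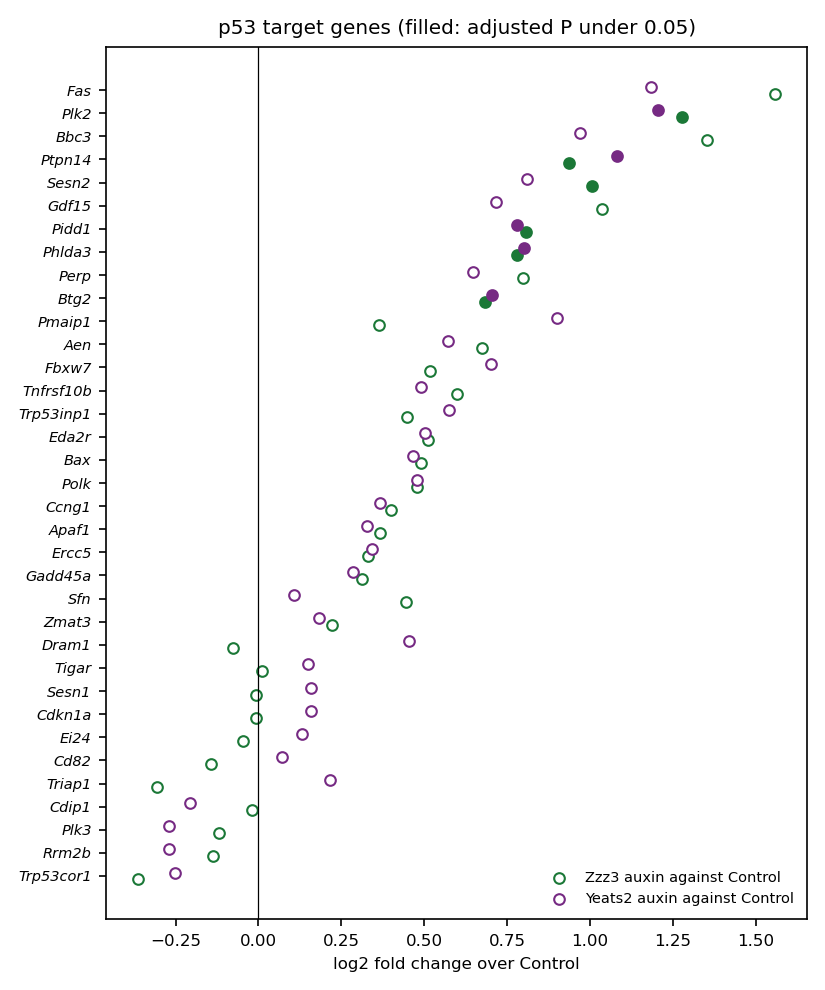
Log2 FC over Control (horizontal axis) of the 35 p53 target genes (vertical axis, ordered by the mean of both), with green for Zzz3 auxin and purple for Yeats2 auxin and filled points for an adjusted P under 0.05. Most points lie to the right of 0 (25 and 31 of 35), and Cdkn1a lies near 0. Plk2, Ptpn14, Pidd1, Phlda3 and Btg2 are filled in both colors, and Sesn2 in green only.

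A list of 28 regulators and cofactors of p53 moved in no common direction. In Zzz3 auxin its median log2 FC was 0.06, with 17 of 28 above 0, and in Yeats2 auxin 0.00, with 14 of 28 above 0. Single genes of the list ranged from a log2 FC of -1.02 to 0.82 in Zzz3 auxin and from -0.60 to 0.65 in Yeats2 auxin. No gene of the list was called by edgeR in either depletion, while 9 and 6 of 28 had an unadjusted P under 0.05, as did 3804 and 2565 of the 17532 genes tested, and DESeq2 called 3 and 1, and limma-voom 0 and 2. Usp7, the deubiquitinase of MDM2 and p53, had group means of 1036 CPM in Control, 1073 in Zzz3 auxin and 1057 in Yeats2 auxin, with log2 FCs of 0.05 and 0.03. Huwe1, a ubiquitin ligase that also acts on p53, had 874, 917 and 766 CPM, Trim24, another such ligase, had 385, 364 and 346 CPM, and Yap1, a coactivator that binds p73, had 265, 224 and 263 CPM.

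Genes with the profile most like that of Trp73 and Mdm2 were sought by the root-mean-square (RMS) difference of log2 CPM, centred per gene over the 8 libraries, among 11980 protein-coding genes. The nearest to Trp73 were Tap1 (RMS 0.106), Tas1r1 (0.119), Hmcn2 (0.125), Afap1l2 (0.145) and Lpin1 (0.159), where the median gene had 0.576. Their levels ranged from 1.68 CPM in Control for Tas1r1 to 130 CPM in Zzz3 auxin for Lpin1. Lpin1, a phosphatidate phosphatase of lipid synthesis, had 57.3 to 61.1 CPM in Control, 124 to 134 in Zzz3 auxin and 106 to 123 in Yeats2 auxin. Tap1, a peptide transporter of antigen presentation, had 1.48 to 2.00, 4.14 to 5.09 and 4.16 to 5.26 CPM.

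The nearest to Mdm2 were D630023F18Rik (RMS 0.0677), Gpx3 (0.0804), Sord (0.0874), Btg2 (0.0902) and Slc19a2 (0.0932), where the median gene had 0.380. Sord, the sorbitol dehydrogenase, had 24.4 to 25.1 CPM in Control, 33.7 to 48.5 in Zzz3 auxin and 39.1 to 41.5 in Yeats2 auxin. Slc19a2, a thiamine transporter, had 128 to 134, 187 to 214 and 193 to 208 CPM. Btg2 was the 1 gene among these 10 that also belongs to the list of p53 targets examined above. Absence from that chosen list does not show that a gene lies outside the p53 response. Whether the other neighbours are p53 targets was not tested. The likeness is over 8 libraries in 3 groups and is a description.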

How the data were processed

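Total RNA libraries of 2 Control, 3 Zzz3 auxin and 3 Yeats2 auxin samples were analysed. The deposited values are raw counts per gene: by the methods section, the authors trimmed them, removed ribosomal RNA reads, aligned to mm10 with STAR 2.5.3a and counted unique, unambiguous reads with HTSeq-count 0.6.1p1. The protocol describes ribosomal depletion of total RNA, although polyA RNA is entered as the molecule. The strand setting is not stated. Among genes inside introns of hosts over 20 CPM, those on the host strand had a median of 0.903 CPM per kb (587 genes) and those on the opposite strand 0.00143 (79), so the counts separate strands.

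Of 55401 identifiers, 55141 matched GENCODE on GRCm38, which gave symbols and exons. In R 4.3.3, filterByExpr kept 17532 genes, and all 8 libraries were fitted with a mean per group by the robust quasi-likelihood test of edgeR 4.0.16 (TMM, two-sided, Benjamini-Hochberg over all genes tested per comparison, called under 0.05). SE is the size of the log2 FC divided by the square root of F. CPM are TMM-scaled. Tables and plots used Python 3.11.15, pandas 2.3.3 and matplotlib 3.10.9. The 16 alternatives were DESeq2 1.42.0 (the study used version 1.16.1), a minimum mean of 1 CPM, no filter, median-of-ratios size factors, the compared groups alone, the replicate number as a block, a GC and length correction (lowess span 0.3), limma-voom (limma 3.58.1) with quality weights, and each library left out. The scripts were tested on simulated data. Counts ran from 14315120 to 27884704 reads per library, so counting error matters for Trp63 and Trp73, and the 2 controls limit the other values.

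The members, gene lists and tests were chosen with earlier results of these data known, the rise of Mdm2 and of p53 target genes included. The text names the members, list genes called against control, the 4 most abundant others of each list and the 5 genes most like Trp73 and Mdm2. Motifs were searched in RefSeq promoter windows, which 5 of 6 members have. The nascent RNA of the study was not analysed here.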

Additional observations from a re-analysis of the deposited data

How the results depend on the processing

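The 2 controls limit every comparison with them, and leaving out a control leaves 1 that is assumed to vary like the other groups. Trp53, Mdm4 and Ppm1d were called in none of the 16 alternatives of either comparison with control, and Mdm4 and Ppm1d kept their sign there. The cause of the changes that follow was not tested.

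With the 2 compared groups fitted alone, the log2 FC of Mdm2 in Zzz3 auxin was 0.72 (edgeR adjusted P 0.174), with 0 members, 0 p53 target genes and 0 of all genes called (2684 at an unadjusted P under 0.05). In Yeats2 auxin this fit called 13 targets, 3 regulators and 501 of all genes. Replicate numbers are shared by the groups. Deviations of same-numbered libraries from their group means had r between -0.17 and 0.20 with a control, and 0.0337, 0.0486 and -0.0334 between the depletions. The 2 controls deviate from their mean as mirror images, so r with a control cannot decide on pairing. With r this low between the depletions, the numbers were not taken to pair the samples. With the replicate block the log2 FC of Mdm2 was 0.73 in Zzz3 auxin (adjusted P 0.0719) and 0.71 in Yeats2 auxin (adjusted P 0.0877), with 0 members and 2 targets called in each, and 42 and 32 of all genes.

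DESeq2 called 15 targets, 3 regulators and 1105 of all genes in Zzz3 auxin, against 13, 1 and 417 in Yeats2 auxin. Without a filter on low counts 33007 genes were tested. Of these, 16 targets, 3 regulators and 1542 genes in all were called in Zzz3 auxin, against 14, 2 and 553 in Yeats2 auxin. The GC and length correction called 9 targets in each depletion, 1 regulator in Zzz3 auxin, and 167 and 132 of all genes, and gave Trp73 a log2 FC of 0.88 and 1.06. Limma-voom called 10 targets and 2 regulators in Yeats2 auxin, where it called 388 of all genes.

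Leaving out 1 library, the log2 FC of Mdm2 ranged from 0.65 to 0.81 in Zzz3 auxin and from 0.64 to 0.76 in Yeats2 auxin. Members called ranged from 0 to 1 in both, targets from 0 to 11 in Zzz3 auxin and from 0 to 10 in Yeats2 auxin, and regulators from 0 to 3 and from 0 to 1. All genes called ranged from 0 to 779 in Zzz3 auxin and from 0 to 230 in Yeats2 auxin. The sign of Trp53 in Yeats2 auxin against control changed without Yeats2 auxin replicate 2, where leaving out 1 library gave -0.37 to 0.037. Between the depletions, leaving out 1 library gave -0.038 to 0.38 for Trp53, with the sign changed without Yeats2 auxin replicate 1, and -0.11 to 0.056 for Mdm2, with it changed without Zzz3 auxin replicate 2 or Yeats2 auxin replicate 1. For Ppm1d the range was -0.0399 to 0.068, changed without Zzz3 auxin replicate 3 or Yeats2 auxin replicate 2, and the value was -0.00162 with the GC and length correction and -0.0402 by limma-voom.

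With the longest transcript as length, the mean level over 8 libraries went from 35.7 to 44.1 CPM per kb for Trp53, from 2.11 to 2.31 for Trp73, from 53.2 to 85.9 for Mdm2, from 33.0 to 68.7 for Mdm4 and from 17.5 to 19.2 for Ppm1d. Counting depth limits Trp63, which had 25 reads in all.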
